A study of Mus musculus with 12 samples.

Results

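The 10 genes described here are antiviral effectors induced by interferon: Ifit1, Ifit2, Ifit3, Isg15, Isg20, Mx1, Mx2, Rsad2, Oasl2 and Ifi44. The rule names the genes and uses no measured value, though earlier results of these data were known when it was written, and an older name in the array annotation stood for Isg15. On these arrays 17 probes carried those names, among 41174 probes in all, and 10 of the 18428 genes tested were members. The study set macrophages grown from bone marrow of C57BL6/J mice beside those of Balb/cAnNCrl mice, shortened below to C57BL6 and Balb/c. In each strain cells were left without IL-4 (mock, kept for 18 h), given 10 ng/ml of recombinant mouse IL-4 (interleukin-4) for 4 h, or given it for 18 h, and each of these 6 groups has 2 arrays, 12 in all. All groups share the rest of their history: marrow of mice 8 to 12 weeks old, each sample a pool of 2 males and 1 female, grown with human recombinant CSF1. The protocol also describes LPS, but none of the 12 samples is labelled as having received it. The pools give no spread between single mice, and the 4 h samples have no mock of their own time.

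Type I interferons bind a receptor that works through the kinases Jak1 and Tyk2 and switches on transcription factors that bind the interferon-stimulated response element in target promoters. The products then block viral growth at different steps: IFIT proteins bind viral RNA and hold back its translation, ISG15 is a ubiquitin-like protein that is joined to other proteins, Mx proteins are dynamin-like GTPases, and viperin (Rsad2) makes a chain-terminating nucleotide. Macrophages in culture can hold a low tonic level of interferon signalling without infection. IL-4 acts through another receptor and Stat6 and drives alternative activation.

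The sequence just before the start site of 4 members is shown because each holds letters of the interferon response element core (GAAA, any 2 bases, then GAAA) on either strand. RefSeq promoters of GRCm38.p6, from 250 bases before to 50 bases after a start site, were at hand for 8 members and not for Mx1 or Mx2. The core was found in the promoters of Ifit1, Ifit3, Isg15 and Rsad2, and in 3.44% of all 32851 promoters of the same length. Counted by gene over all start sites, as the members are, it was found in 3.99% of 27025 genes. Capitals mark the matches. The windows end at the base before the start site, on the strand of the gene: chr19:34640765-34640888 (plus strand) for Ifit1, chr19:34583353-34583528 (plus) for Ifit3, chr4:156200819-156200918 (minus) for Isg15 and chr12:26456453-26456592 (minus) for Rsad2.
Ifit1: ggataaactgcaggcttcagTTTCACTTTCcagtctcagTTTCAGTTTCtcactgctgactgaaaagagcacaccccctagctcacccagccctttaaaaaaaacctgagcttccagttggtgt
Ifit3: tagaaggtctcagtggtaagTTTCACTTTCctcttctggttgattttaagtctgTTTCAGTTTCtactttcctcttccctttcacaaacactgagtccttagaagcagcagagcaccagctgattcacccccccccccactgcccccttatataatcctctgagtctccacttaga
Isg15: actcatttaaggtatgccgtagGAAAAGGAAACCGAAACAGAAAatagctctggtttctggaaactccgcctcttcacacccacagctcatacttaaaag
Rsad2: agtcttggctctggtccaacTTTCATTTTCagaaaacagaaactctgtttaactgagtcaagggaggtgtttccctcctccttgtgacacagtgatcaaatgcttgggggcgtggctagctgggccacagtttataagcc
Ifit1 and Ifit3 each carry 2 matches, Isg15 carries 3 that overlap, and Rsad2 carries 1. The spaced palindromes TTC and GAA with 3 or with 4 bases between them are forms bound by STAT dimers that read the same on both strands. Each was found in the promoters of 2 members, Ifit2 and Isg20. The shares over all promoters were 8.30% (3 bases) and 6.95% (4 bases). Counted by gene, as the members are, they were 9.55% and 8.01%. A match is a description of letters, not of a bound site.

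Each array held 43379 spots, 54.9% to 69.7% of them well above background, and all 17 member probes were well above background on all 12 arrays. The cells carried their labelled identity: the 8 macrophage markers were all detected on every array, with a summed linear level (in units of the array's 75th percentile) of 636 to 791 in mock and 538 to 629 at 18 h over both strains. Of these 8 genes Cd14 and Fcgr1 fell at 18 h in both strains, and their part in the results was not tested. The same sum was 0.778 to 2.20 for plasmacytoid dendritic cells, a cell type known for interferon production, with 5 of 6 markers tested. Neutrophil markers (5 of 7 tested) summed to 7.74 to 14.9 in C57BL6 and 2.00 to 4.42 in Balb/c, and the part of either cell type in the results was not tested. IL-4 acted in both strains, since all 10 genes of an IL-4 response list rose at 18 h in C57BL6 and 8 of 10 did in Balb/c, among them Mgl2, a macrophage lectin (log2 change 6.55 ± 0.87 SE, adjusted p = 0.00603, and 6.74 ± 0.87, adjusted p = 0.00518, from limma). Fewer cells of a type and less RNA per cell cannot be told apart in such bulk samples. The arrays lay on 3 slides that do not match the groups: slide 1 held both Balb/c mock arrays with the first replicates of the Balb/c IL-4 groups, and slide 2 held the other Balb/c IL-4 arrays with C57BL6 mock and 4 h replicate 1.

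After 18 h of IL-4 the antiviral genes were lower than in mock in both strains. In Balb/c all 10 members fell, by 4.05-fold (Oasl2) to 24.5-fold (Ifit3), and in C57BL6 8 of 10 fell, by 2.68-fold (Oasl2) to 12.5-fold (Ifit3). No member rose. At 4 h 0 of 10 passed the test in either strain. Both 4 h arrays lay below both mock arrays for 7 of 10 members in C57BL6 and 6 of 10 in Balb/c. These were the Ifit genes, Rsad2, Oasl2 and Ifi44 in both strains, and Mx2 in C57BL6. The same held for 27.8% of all genes in C57BL6 and 15.2% in Balb/c. The level in a sample is given as the log2 signal minus the 75th percentile of its array, and calls are limma's at a Benjamini-Hochberg adjusted p below 0.05 over all 18428 genes. Each value is one probe's, so levels are not compared between genes.

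**Figure D1:**
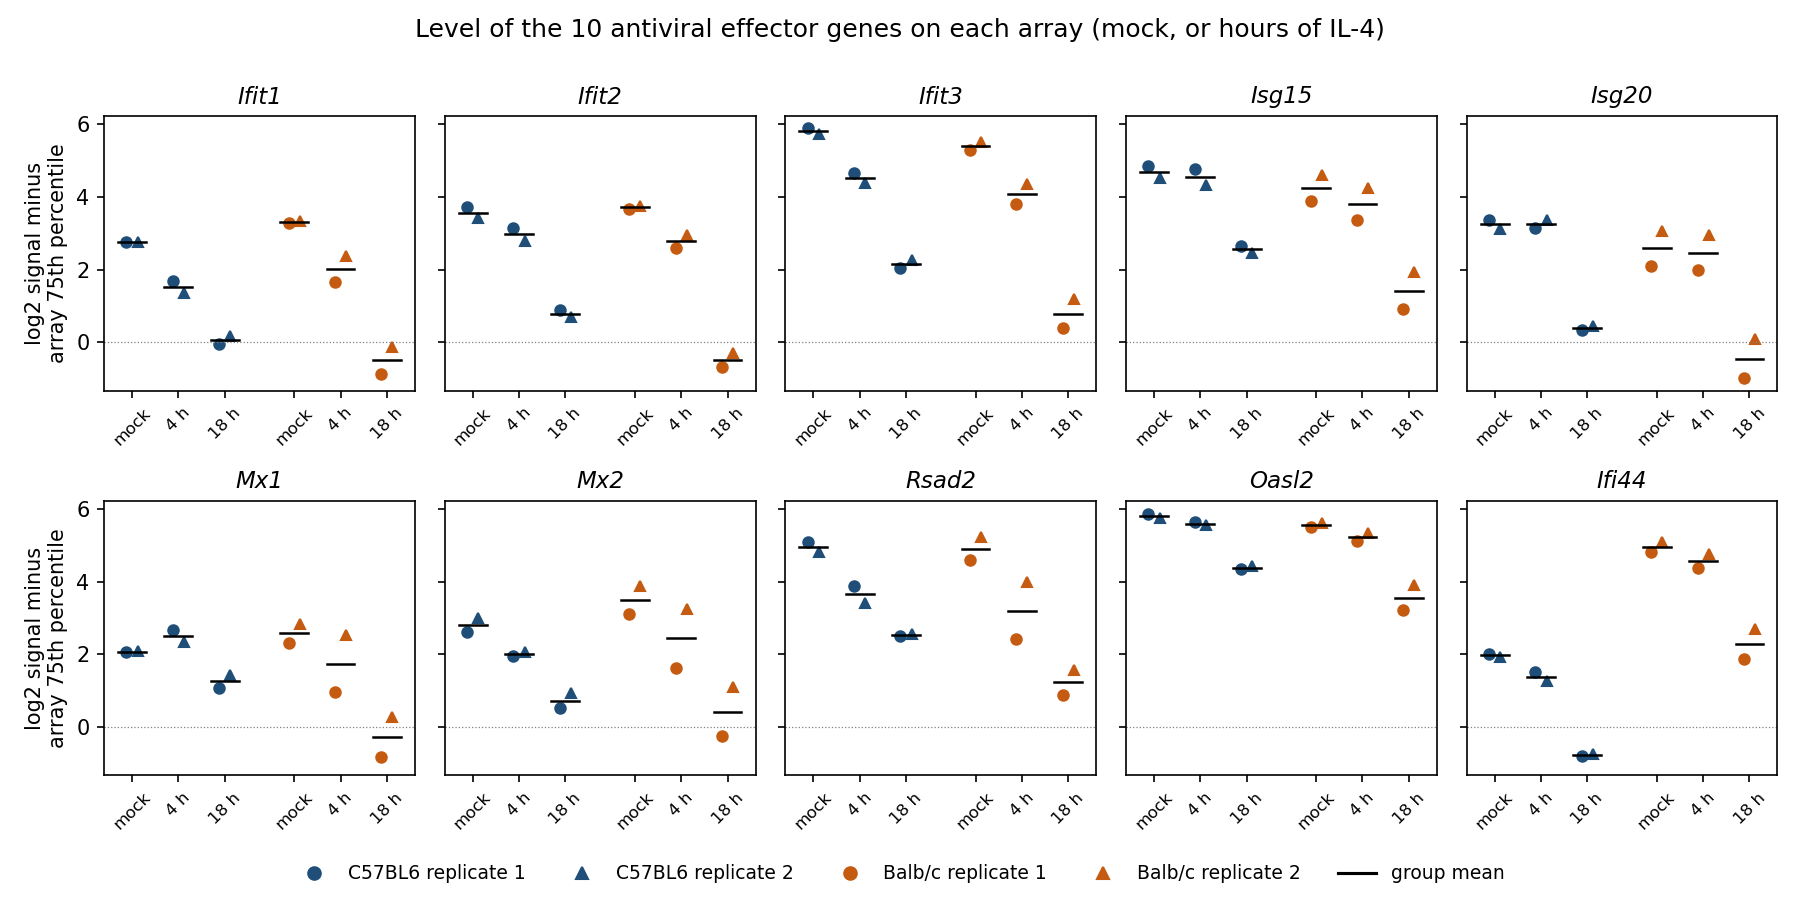
Level of each of the 10 members (log2 signal minus the array's 75th percentile, vertical axis) in C57BL6 and Balb/c macrophages without IL-4 (mock) and after 4 h and 18 h of IL-4. Points are single arrays, 2 per group, and short horizontal lines mark group means. The 18 h arrays lie below both mock arrays of their strain for every member.

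The IFIT genes lie together on chromosome 19 and encode RNA-binding proteins with tetratricopeptide repeats. By the probe that stood for each gene, they showed the steepest falls at 18 h in Balb/c, while in C57BL6 Ifit3 led, followed by Isg20. Ifit1 (chr19:34640889-34650009, GRCm38.p6) stood at 2.76 and 2.77 on the C57BL6 mock arrays, 1.69 and 1.34 after 4 h of IL-4 and -0.04 and 0.18 after 18 h. In Balb/c the Ifit1 levels were 3.28 and 3.35, then 1.65 and 2.37, then -0.88 and -0.12. The 3 groups of each strain did not overlap, and the level stepped down from mock to 4 h to 18 h. Ifit1 fell at 18 h by 2.69 ± 0.31 on the log2 scale in C57BL6 (6.48-fold, adjusted p = 0.00336) and by 3.82 ± 0.31 in Balb/c (14.1-fold, adjusted p = 0.00103). The order over groups ran from Balb/c mock down to Balb/c 18 h, and the only neighbours in it whose arrays overlapped were the 4 h groups of the 2 strains.

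Ifit2 (chr19:34550550-34576534) encodes a further IFIT protein, which joins complexes with the others. Its C57BL6 levels were 3.72 and 3.41 in mock, 3.15 and 2.80 at 4 h, and 0.88 and 0.69 at 18 h. Its Balb/c levels were 3.67 and 3.76 in mock, 2.59 and 2.97 at 4 h, and -0.68 and -0.29 at 18 h. Mock arrays of the 2 strains overlapped, as did the 4 h arrays, while the 18 h arrays of Balb/c lay below those of C57BL6. Ifit2 fell by 2.78 ± 0.22 in C57BL6 (6.86-fold, adjusted p = 0.000947) and by 4.20 ± 0.22 in Balb/c (18.4-fold, adjusted p = 0.000186). Its second probe fell by 2.62 ± 0.37 and by 4.46 ± 0.37.

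Ifit3 (chr19:34583119-34588982) encodes the partner that stabilises IFIT1. Levels ran from 5.89 and 5.73 in C57BL6 mock through 4.66 and 4.40 at 4 h to 2.05 and 2.27 at 18 h. In Balb/c they ran from 5.28 and 5.53 through 3.80 and 4.35 to 0.40 and 1.18. None of the 6 groups overlapped its neighbours in the order of levels, and at each stage C57BL6 stood above Balb/c on this probe. On the second Ifit3 probe the mock arrays overlapped (1.57 and 0.93 in C57BL6, 1.31 and 1.42 in Balb/c). The fall at 18 h, 3.65 ± 0.29 in C57BL6 (12.5-fold, adjusted p = 0.000947) and 4.62 ± 0.29 in Balb/c (24.5-fold, adjusted p = 0.00029), had the largest size among the members in both strains. That second probe changed by -3.70 ± 0.33 in C57BL6 and by -5.18 ± 0.33 in Balb/c. The array annotation starts the first probe at chr19:34289919 and the second at chr19:34313887, on a build that is not given. They lie farther apart than the 5864 bases that Ifit3 spans, so by that annotation they cannot both lie in Ifit3. The second probe carries the name Ifit3 but may not measure this gene. Ifit3b, a close copy that lies beside Ifit3 on the chromosome, has no probe of its own name on the array, so the share of each copy in these signals is uncertain.

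Isg15 (chr4:156199424-156200818) and Isg20 (chr7:78913396-78920396) encode the ubiquitin-like modifier and an exonuclease that degrades RNA. Isg15 stood at 4.86 and 4.52 in C57BL6 mock, 4.78 and 4.33 at 4 h, and 2.66 and 2.45 at 18 h. In Balb/c the Isg15 levels were 3.90 and 4.60 in mock, 3.38 and 4.25 at 4 h, and 0.91 and 1.92 at 18 h. The 4 h arrays overlapped those of mock in both strains, and the 18 h arrays lay below all of them. Isg15 fell at 18 h by 2.13 ± 0.42 in C57BL6 (4.39-fold, adjusted p = 0.0308) and by 2.83 ± 0.42 in Balb/c (7.10-fold, adjusted p = 0.00978). The array annotation places the Isg15 probe on another chromosome than RefSeq does, with a build that is not given in the sources used here, and the gene name rests on its transcript accession.

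Isg20 stood at 3.38 and 3.11 in C57BL6 mock, 3.16 and 3.35 at 4 h, and 0.35 and 0.45 at 18 h. In Balb/c it stood at 2.10 and 3.08, then 1.98 and 2.96, then -0.99 and 0.09. As for Isg15 the 4 h arrays overlapped those of mock (changes of 0.01 ± 0.46 and -0.12 ± 0.46), and the 18 h arrays lay below both. Isg20 fell by 2.85 ± 0.46 in C57BL6 (7.19-fold, adjusted p = 0.0136) and by 3.04 ± 0.46 in Balb/c (8.22-fold, adjusted p = 0.0105). Its second probe changed by -2.90 ± 0.41 and -3.08 ± 0.41.

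Mx1 (chr16:97447035-97462906) and Mx2 (chr16:97536081-97560901) are listed by RefSeq as transcribed pseudogenes in the C57BL/6J reference genome, where common laboratory strains carry defective copies. Their RNA was measured well above background throughout. Mx1 stood at 2.05 and 2.09 in C57BL6 mock, 2.67 and 2.34 at 4 h, and 1.08 and 1.44 at 18 h. In Balb/c it stood at 2.31 and 2.84 in mock, 0.95 and 2.54 at 4 h, and -0.82 and 0.28 at 18 h. The C57BL6 18 h arrays lay below mock by 0.81 ± 0.53 on the log2 scale, which missed the threshold (adjusted p = 0.504, and 0.104 with the replicate number as a block). In Balb/c Mx1 fell by 2.85 ± 0.53 (7.20-fold, adjusted p = 0.0242).

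Mx2 stood at 2.60 and 3.00 in C57BL6 mock, 1.95 and 2.07 at 4 h, and 0.52 and 0.94 at 18 h. In Balb/c it stood at 3.12 and 3.88, then 1.63 and 3.25, then -0.25 and 1.09. The 18 h arrays lay below mock in both strains, and the 18 h arrays of the strains overlapped. In Balb/c Mx2 fell by 3.07 ± 0.59 (8.42-fold, adjusted p = 0.0286). In C57BL6 the change of -2.07 ± 0.59 missed the threshold (adjusted p = 0.105) and passed it with the replicate block (adjusted p = 0.00404).

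Rsad2 (chr12:26442743-26456452) encodes viperin. Its levels were 5.10 and 4.83 in C57BL6 mock, 3.88 and 3.43 at 4 h, and 2.50 and 2.55 at 18 h. In Balb/c they were 4.59 and 5.23, then 2.41 and 3.98, then 0.87 and 1.58. The mock arrays of the strains overlapped, and in each strain the 3 groups were separate. Rsad2 fell at 18 h by 2.44 ± 0.49 in C57BL6 (5.42-fold, adjusted p = 0.0326) and by 3.69 ± 0.49 in Balb/c (12.9-fold, adjusted p = 0.00612). Its other 2 probes changed by -1.93 ± 0.56 and -1.96 ± 0.58 in C57BL6 at 18 h and missed the threshold there (adjusted p = 0.111 and 0.119 with every probe tested). In Balb/c those 2 probes each fell by 3.83 (± 0.56 and ± 0.58), beside 3.82 ± 0.31 for Ifit1.

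Oasl2 (chr5:114896926-114912245) encodes a protein of the oligoadenylate synthetase family with ubiquitin-like domains. It stood at 5.86 and 5.76 in C57BL6 mock, 5.64 and 5.57 at 4 h, and 4.34 and 4.43 at 18 h. In Balb/c it stood at 5.52 and 5.63, then 5.12 and 5.35, then 3.21 and 3.90. The arrays of a group were close together except in Balb/c at 18 h. The falls of Oasl2 at 18 h were the smallest called, 1.42 ± 0.22 in C57BL6 (2.68-fold, adjusted p = 0.0121) and 2.02 ± 0.22 in Balb/c (4.05-fold, adjusted p = 0.003).

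Ifi44 (chr3:151730922-151749910) encodes an interferon-induced protein with a GTP-binding motif, and it was the member that parted the strains. It stood at 2.01 and 1.94 in C57BL6 mock, 1.50 and 1.28 at 4 h, and -0.79 and -0.73 at 18 h. In Balb/c it stood at 4.82 and 5.08, then 4.39 and 4.75, then 1.87 and 2.71. The Balb/c arrays after 18 h of IL-4 overlapped the C57BL6 arrays that had none. Ifi44 fell by 2.74 ± 0.27 in C57BL6 (6.67-fold, adjusted p = 0.00206) and by 2.66 ± 0.27 in Balb/c (6.33-fold, adjusted p = 0.0023). Its second, dimmer probe changed by -2.07 ± 0.56 in C57BL6 and missed the threshold (adjusted p = 0.0891 with every probe tested). In Balb/c that probe fell by 3.15 ± 0.56 (limma adjusted p = 0.0205 with every probe tested).

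**Figure D2:**
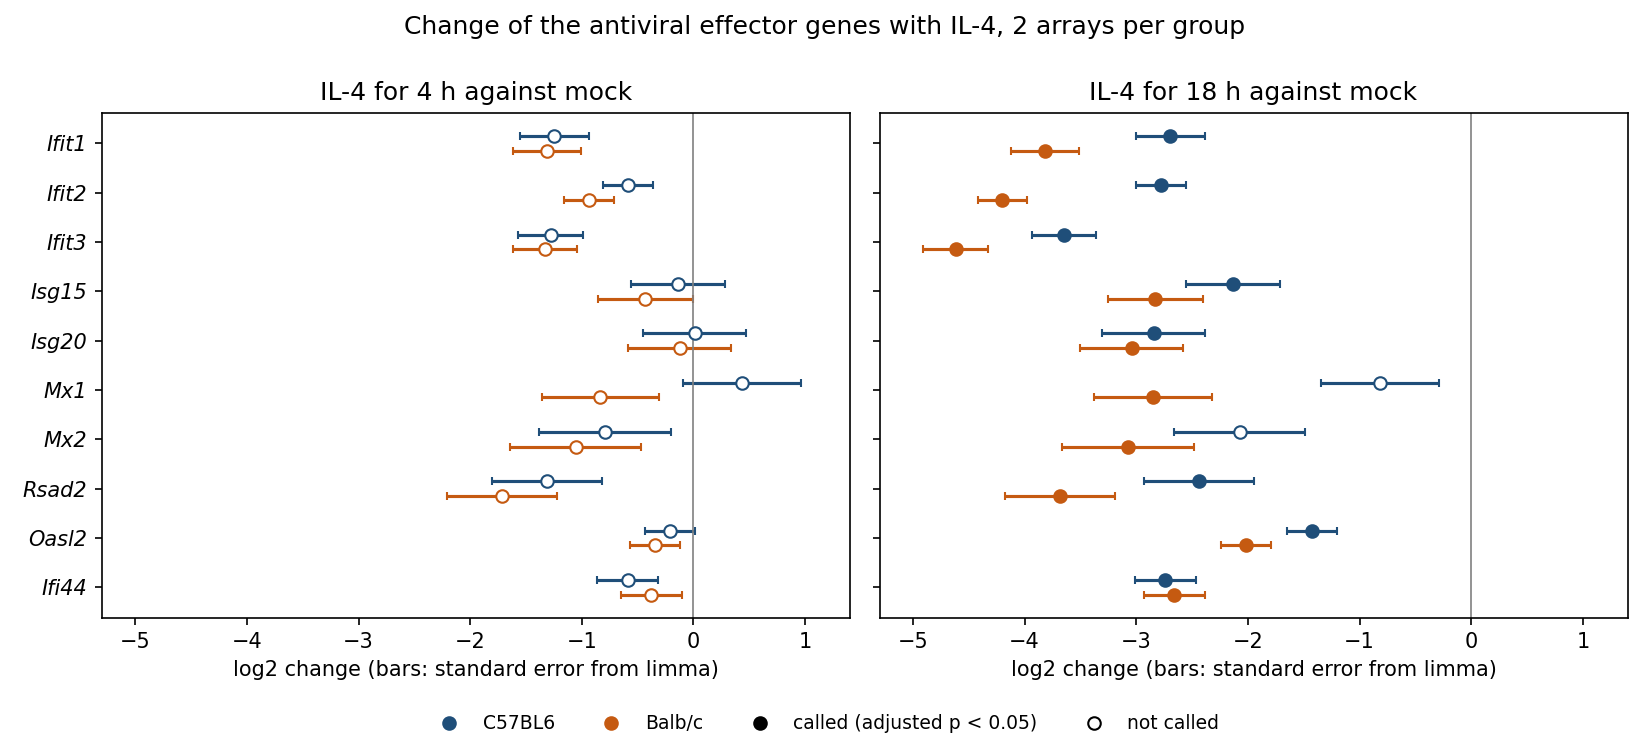
Log2 change of each member against mock of its strain (horizontal axis) after 4 h and 18 h of IL-4 in C57BL6 and Balb/c. Points are limma estimates and bars are 1 SE, filled where called; at 18 h the changes run from -3.65 to -0.81 in C57BL6 and from -4.62 to -2.02 in Balb/c.

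Over all genes the test called 2.59% lower at 18 h in C57BL6 and 2.36% in Balb/c, against 8 of 10 and 10 of 10 members. The median member change was -2.57 in C57BL6 and -3.06 in Balb/c, and the median of all genes was -0.04 and 0.02. Both mock arrays lay above both 18 h arrays for all 10 members in each strain, as for 28.5% and 21.2% of all genes. All 10 members stayed below 0 at 18 h in both strains under every alternative setting run, though the number called moved. Leaving out either C57BL6 mock array or either C57BL6 18 h array left 4 calls in C57BL6 (Ifit1, Ifit2, Ifit3 and Ifi44). Leaving out either C57BL6 4 h array left 6, without Isg15 and Rsad2. In Balb/c the count was 6 without mock replicate 2 or without 18 h replicate 1 (Isg15, Isg20, Mx1 and Mx2 were lost), and 8, without Mx1 and Mx2, when mock replicate 1 or any C57BL6 array was left out. Background correction by normexp left 3 and 4 calls, and a fit to only the arrays compared left 1 in Balb/c (Ifit2). Comparing arrays of the same slide only, all 10 members were below mock at 18 h in C57BL6 (slide 3, median -2.46) and in Balb/c (slide 1, median -3.66).

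The question at 4 h was how early the fall began. The median change was -0.59 in C57BL6 and -0.88 in Balb/c, against -0.03 and 0.02 over all genes. Below 0 were 8 and 10 of 10 members. While limma called 0 members in either strain, 4 in each had an unadjusted p below 0.05. Of all 18428 genes 2952 in C57BL6 and 1864 in Balb/c had such a p. Of all genes 1.66% were called lower at 4 h in C57BL6 and 0.488% in Balb/c. The largest changes in C57BL6 were those of Rsad2 (-1.32 ± 0.49, adjusted p = 0.237), Ifit3 (-1.28 ± 0.29, adjusted p = 0.0593) and Ifit1 (-1.25 ± 0.31, adjusted p = 0.0774). In Balb/c the same genes changed by -1.71 ± 0.49, -1.33 ± 0.29 and -1.31 ± 0.31 (adjusted p = 0.191, 0.0864 and 0.106). With the replicate number as a block within strain, 4 members passed in C57BL6: Ifit1 (adjusted p = 0.019), Ifit2 (0.0246), Ifit3 (0.0104) and Rsad2 (0.0256). The same block passed 5 in Balb/c: Ifit1 (0.0289), Ifit2 (0.0139), Ifit3 (0.0171), Mx2 (0.0457) and Rsad2 (0.023). The shares of all genes called, 1.66% and 0.488%, came from the fit without the block and are no background for these counts. The Balb/c median moved with single 4 h arrays, to -0.24 with 8 of 10 below 0 without replicate 1 and to -1.36 without replicate 2. Without either Balb/c 18 h array Ifit3 passed in C57BL6, and without Balb/c 4 h replicate 2 Rsad2 passed in Balb/c.

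At 4 h Isg15, Isg20, Oasl2 and Ifi44 differed from mock by -0.59 to 0.01 in C57BL6 and by -0.43 to -0.12 in Balb/c. None of these passed the threshold in the fit or with the block. The lowest of them in C57BL6, Ifi44, changed there as much as Ifit2 (-0.59 each). Mx2 changed by -0.79 ± 0.59 in C57BL6 and by -1.06 ± 0.59 in Balb/c, and Mx1 by -0.83 ± 0.53 in Balb/c. Mx1 was the only member whose 4 h arrays both lay above mock in C57BL6 (0.43 ± 0.53, adjusted p = 0.806), as for 21.5% of all genes. Within slides the C57BL6 members were below mock in 9 of 10 on slide 2 and 8 of 10 on slide 3, and the Balb/c members in 10 of 10 on slide 1. Balb/c replicate 1 lay below replicate 2 for all 10 members in mock, where both arrays were on slide 1, and at 4 h and 18 h, where they were on slides 1 and 2.

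Between 4 h and 18 h of IL-4, a comparison with no mock array in it, all 10 members were lower at 18 h in each strain, with every 18 h array below every 4 h array, as for 25.3% of all genes in C57BL6 and 17.5% in Balb/c. The test called 4 of 10 in C57BL6, Isg20 (-2.86 ± 0.46, adjusted p = 0.0384), Ifit3 (-2.37 ± 0.29, 0.0149), Ifit2 (-2.19 ± 0.22, 0.00874) and Ifi44 (-2.15 ± 0.27, 0.0166), against 0.667% of all genes. It called 6 of 10 in Balb/c, Ifit3 (-3.29 ± 0.29, adjusted p = 0.00618), Ifit2 (-3.26 ± 0.22, 0.00545), Isg20 (-2.92 ± 0.46, 0.0352), Ifit1 (-2.51 ± 0.31, 0.0145), Ifi44 (-2.28 ± 0.27, 0.0141) and Oasl2 (-1.68 ± 0.22, 0.0195), against 0.657%. The median change was -1.72 in C57BL6 and -2.34 in Balb/c. With the replicate block 8 passed in C57BL6 (Mx1 and Rsad2 did not) and 10 in Balb/c, while the shares of 0.667% and 0.657% are from the fit without it. The calls were not stable: leaving out any C57BL6 array of these groups lost most or all of them in that strain. In Balb/c the same held for 18 h replicate 1 and for 4 h replicate 2. The direction held, with all 10 members below 0 whichever array was left out. Their median then ran from -1.92 to -1.56 in C57BL6 and from -2.83 to -1.88 in Balb/c. For Isg20 in C57BL6 the change from 4 h (-2.86) was as large as that from mock (-2.85).

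Between the strains without IL-4, Ifi44 alone of the 10 members passed the test, 2.97 ± 0.27 higher in Balb/c (7.85-fold, adjusted p = 0.000753), against 5.25% of all genes called in either direction. Its second probe was higher by 2.74 ± 0.56 (adjusted p = 0.0277 with every probe tested). The call held in all 27 alternative settings run. The other 9 differed by -0.65 to 0.70, with Isg20 lowest and Mx2 highest, and adjusted p of 0.362 to 0.966. Ifit1, Mx1 and Mx2 arrays lay higher in Balb/c without overlap, and those of Ifit3, Isg20 and Oasl2 lay lower, none of them past the threshold; 17.3% of all genes lay higher without overlap and 30.5% lower. The second probe named Ifit3 (0.12 ± 0.33) and that of Isg20 (-0.45 ± 0.41) overlapped between the strains. The mock arrays of the strains share no slide: both of Balb/c were on slide 1 and those of C57BL6 on slides 2 and 3. With slide as a fixed block all 10 members were above 0, from 0.15 (Ifit3) to 3.49 (Ifi44), with Isg20 at 0.36 and Mx2 at 2.30, and Ifi44 remained the only one called. The replicate block lies within strains and could not serve here.

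Whether IL-4 lowered the genes more in one strain than in the other was tested as a difference of changes. At 18 h the change was more negative in Balb/c for 9 of 10 members, with a median difference of -0.98 against 0.04 over all genes. Ifi44 (0.08 ± 0.39) was the exception on the probe that stood for it. Its second probe changed by -2.07 ± 0.56 in C57BL6 and by -3.15 ± 0.56 in Balb/c. The median difference was -0.46 with 8 below 0 without Balb/c 18 h replicate 1 and -1.43 without replicate 2. With slide as a fixed block it was -1.49 with all 10 below 0, Ifi44 included. The difference was -1.42 ± 0.31 for Ifit2 (limma adjusted p = 0.572) and -2.03 ± 0.75 for Mx1 (limma adjusted p = 0.919). These genes, Ifit1 (-1.12 ± 0.43) and Ifit3 (-0.97 ± 0.41) had an unadjusted p below 0.05. None of the 10 passed over all genes, where limma called 0 of 18428 (0%) with 973 at an unadjusted p below 0.05. At 4 h the median difference was -0.20 and its sign rested on single arrays: leaving out 4 h replicate 1 of Balb/c gave 0.26, leaving out 4 h replicate 2 gave -0.58, and leaving out mock replicate 2 gave 0.01. There the adjusted p was 0.9999 for each member, and limma again called 0 genes (0%) with 446 at an unadjusted p below 0.05. Quantile normalisation called 9 genes at 18 h and 2 at 4 h and the deposited ratios called 2 and 6, with no member among them.

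**Figure D3:**
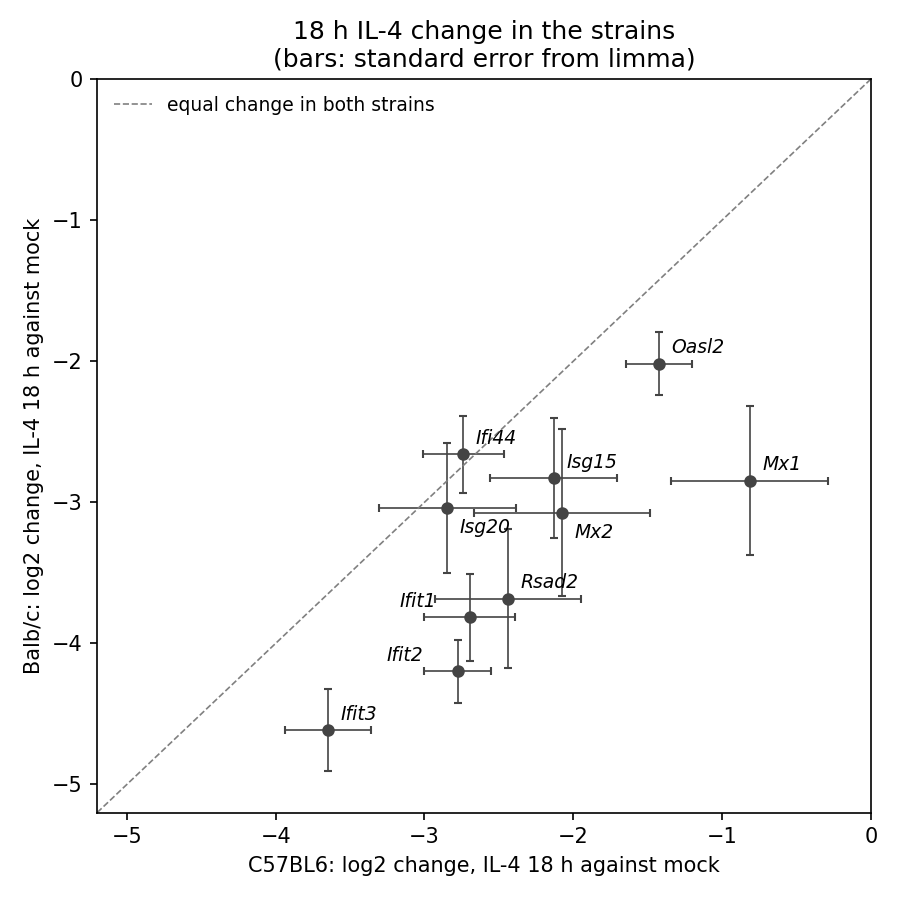
Log2 change of each member after 18 h of IL-4 in Balb/c (vertical axis) against that in C57BL6 (horizontal axis), each against mock of its own strain; bars are 1 SE and the dashed line marks equal change. In it 9 of the 10 members lie below the line and Ifi44 lies close to it, and no single distance from the line passed the test over all genes.

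The members varied together over the 12 arrays. Their 45 pairwise Pearson correlations ran from 0.28 to 0.99 with a median of 0.90, and the lowest pair was Ifi44 with Mx1. Ifi44 stood apart (median correlation with the other members 0.37), and Ifit3 was the most central (0.96). These values describe the 12 arrays, which share the strain and IL-4 groups, and carry no test. The genes outside the list most like the mean member profile over the 12 arrays were Phf11a (r = 0.994), Tnfsf10, a death ligand (0.98), Slfn9 (0.98), the unnamed transcript NAP007796-001 (0.979), the high-affinity IgG receptor Fcgr1 (0.979), Ifi204 (0.979), Phf11d (0.978) and E430029J22Rik (0.978). They were picked for likeness on these same arrays, so a fall at 18 h follows from the choice and is given with no test. NAP007796-001 changed by -3.61 in C57BL6 and -4.67 in Balb/c, and the array annotation places its probe beside the first Ifit3 probe.

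Upstream genes were read from lists of the pathway. Of 18 interferon ligands 8 were tested and limma called 0 at 18 h in either strain. An unadjusted p below 0.05 was seen for 2 in C57BL6 and 1 in Balb/c, against 3218 and 2790 of all 18428 genes. The median change was -0.04 in C57BL6 and -0.29 in Balb/c. Ifnb1, singled out here after its values were seen, is the gene of interferon beta. It was well above background on 7 of 12 arrays and stood at -4.39 and -4.05 in C57BL6 mock and -6.75 and -6.20 at 18 h. In Balb/c it stood at -4.08 and -4.07 in mock and -6.98 and -6.90 at 18 h. The changes of -2.25 ± 0.64 and -2.86 ± 0.64 missed the threshold (adjusted p = 0.106 and 0.0528; the latter 0.0349 with the replicate block), and near background they are not exact sizes.

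The next list holds 10 receptor and signalling genes. Stat2, a transcription factor downstream of the receptor, fell at 18 h by 1.17 ± 0.19 in C57BL6 (adjusted p = 0.0146) and by 1.15 ± 0.19 in Balb/c (adjusted p = 0.0158). Irf9, its DNA-binding partner, changed by -0.57 ± 0.13 in C57BL6 (adjusted p = 0.0593, and 0.0168 with the replicate block) and fell by 0.76 ± 0.13 in Balb/c (adjusted p = 0.0200). Jak2, a kinase of the interferon gamma receptor and of other cytokine receptors, went the other way: it rose at 4 h by 1.43 ± 0.24 in C57BL6 (adjusted p = 0.0209) and by 1.41 ± 0.24 in Balb/c (adjusted p = 0.0369), and at 18 h in Balb/c (1.14 ± 0.24, adjusted p = 0.0443). At 18 h in C57BL6 Jak2 changed by 0.82 (adjusted p = 0.12, and 0.0175 with the block). The list medians at 18 h were -0.44 and -0.25.

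Of 21 sensors and inducers of interferon, 6 fell at 18 h in C57BL6 and 7 in Balb/c, and none rose (medians -0.53 and -0.62). Zbp1, a sensor of Z-form nucleic acid, fell by 1.86 ± 0.19 (adjusted p = 0.00218) and by 2.10 ± 0.19 (adjusted p = 0.00145). The RNA sensor gene Ddx58 (RIG-I) fell by 1.30 ± 0.25 and 1.73 ± 0.25, and its relative Dhx58 fell by 1.36 ± 0.25 and 1.70 ± 0.25. Ifih1, Ikbke and Irf7 were the other genes called in both strains, and Myd88 was called in Balb/c. With the replicate block 11 fell in each strain, Myd88 among them in C57BL6 too.

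All 5 genes of ISG15 conjugation and removal were tested, and 3 fell in C57BL6 and 4 in Balb/c at 18 h (medians -1.33 and -1.51). Ube2l6, the conjugating enzyme, fell by 1.39 ± 0.17 and 1.51 ± 0.17, and Herc6, the main mouse ligase, fell by 1.45 ± 0.19 and 1.57 ± 0.19. Usp18, which removes ISG15 and restrains receptor signalling, changed by -1.33 ± 0.36 in C57BL6 (adjusted p = 0.0879, and 0.0177 with the replicate block) and fell by 1.78 ± 0.36 in Balb/c (adjusted p = 0.0347). Uba7, the activating enzyme, was called lower in both. Isg15 itself, its activating and conjugating enzymes and this ligase were thus all called lower at 18 h in both strains.

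Of 40 further antiviral genes 35 were tested. At 18 h 13 fell in C57BL6 and 22 in Balb/c, and none rose (medians -0.94 and -1.36). An unadjusted p below 0.05 was seen for 27 and 31 of them, against 3218 and 2790 of all 18428 genes. Cxcl10, a chemokine for T cells, fell by 4.83 ± 0.57 in C57BL6 and by 5.38 ± 0.57 in Balb/c (41.6-fold, adjusted p = 0.00256). It was also the only gene of this list called at 4 h, in C57BL6 (-2.80 ± 0.57, adjusted p = 0.0416). With the replicate block 26 of the 35 fell at 18 h in C57BL6 and 29 in Balb/c, and at 4 h 3 fell and 2 rose in C57BL6 and 5 fell in Balb/c. Cmpk2, a nucleotide kinase gene that neighbours Rsad2, fell by 2.44 ± 0.44 and 3.10 ± 0.44. Iigp1, an immunity-related GTPase, fell by 2.15 ± 0.26 and 3.06 ± 0.26.

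**Figure D4:**
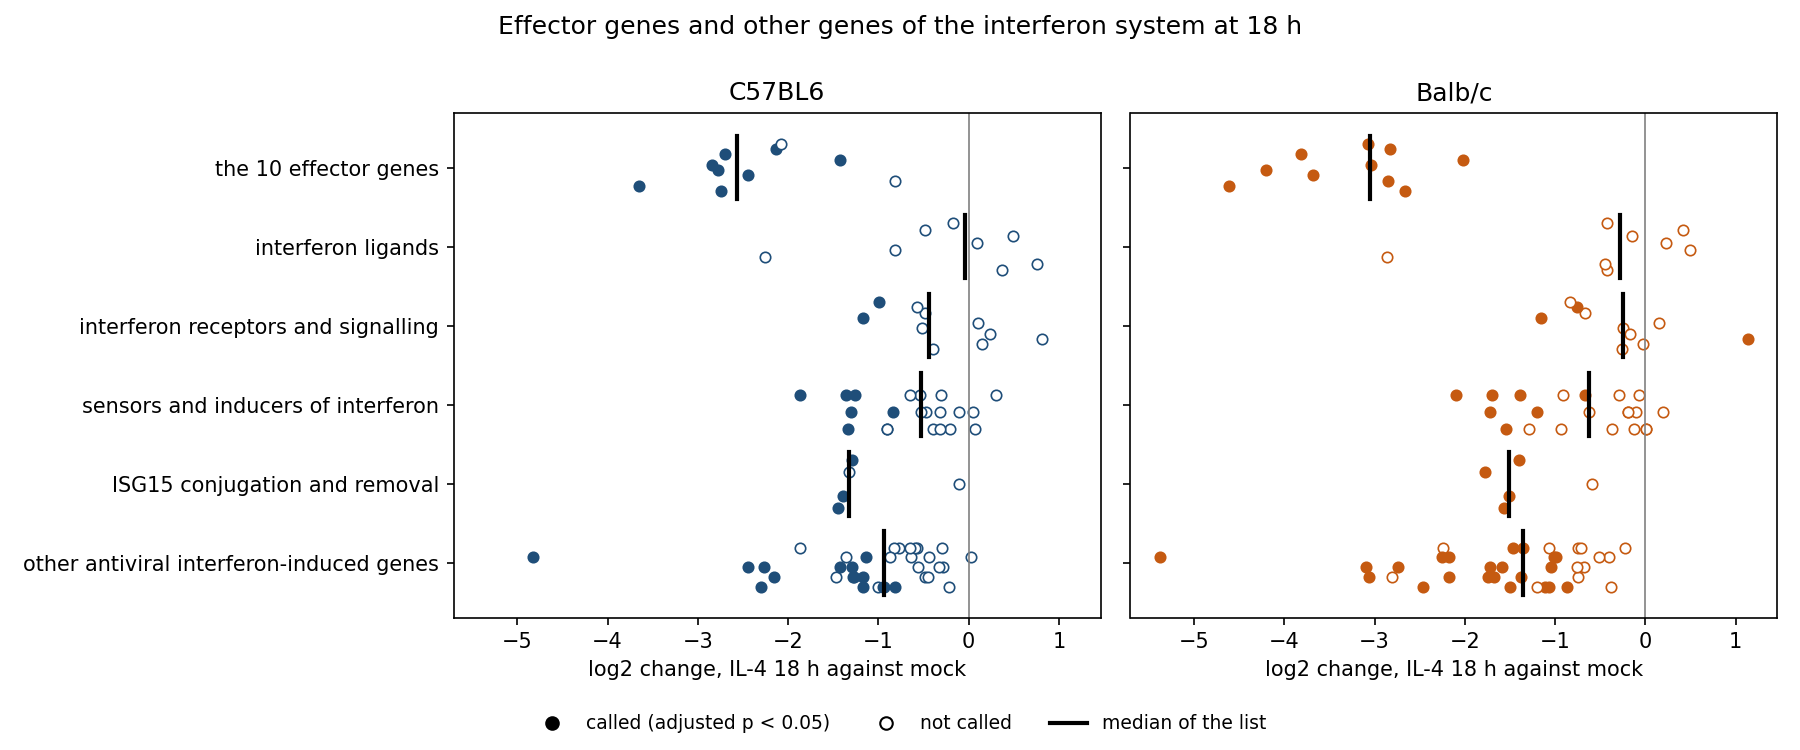
Log2 change at 18 h of IL-4 against mock (horizontal axis) for each tested gene of the members and of the interferon pathway lists, in C57BL6 and in Balb/c; each point is 1 gene, filled where limma called it at an adjusted p below 0.05, and the bar is the list's median. The members' medians lie at -2.57 and -3.06, and those of the other lists between -1.51 and -0.04.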

How the data were processed

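RNA of the 12 macrophage samples was labelled with Cy3 and read on 1-colour Agilent arrays. The deposited scanner files give each spot's intensity (processed green signal, linear scale); the submitters' processing notes name Agilent Feature Extraction, version 9.5.1.1. The deposited value table holds a linear ratio for each probe whose denominator the authors do not state; set against the scanner signal it matched a division by the C57BL6 mock mean, and it served as an alternative. After control and flagged spots were removed, log2 intensity was centred by subtracting each array's own 75th percentile. A probe was kept if both arrays of some group had it well above background (27373 of 41174), and the kept probe with the highest mean stood for a gene. Names came from RefSeq of GRCm38.p6, where 17629 kept probes matched by accession, 3978 by symbol and 1869 by an older symbol; 3897 kept the name in the file.

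Group means were fitted over all 12 arrays with limma 3.58.1 in R 4.3.3 (6 residual degrees of freedom), tested on simulated data first, and p-values were adjusted by Benjamini-Hochberg over 18428 genes. Errors are standard errors from limma. The number of arrays limits the precision. Replicate numbers were taken as pairs within a strain, since the series text says that each experiment used other littermates. Deviations of same-numbered arrays correlated at 0.155 to 0.654 in all 6 pairs of groups of a strain (-0.312 to 0.141 between strains). Slides partly follow the numbers: replicate 1 of Balb/c was all on slide 1 and replicate 2 of C57BL6 all on slide 3. Where both numbers shared their slides r was 0.654 (Balb/c 4 h with 18 h) and 0.621 (C57BL6 mock with 4 h). The other pairs within a strain gave 0.155 to 0.501. A shared litter and a shared slide cannot be told apart in these values. Named genes were all 10 members, from each list up to 3 called genes with the largest mean change at 18 h, and the 8 genes most like the members. The members and lists were chosen with earlier results of these data known. Alternatives covered scaling, background, probe filter and choice, blocks, weights and single arrays; slide as a fixed block and the loss of slide 2 were chosen after seeing the data. One gene of the signalling list is not reported here.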

Additional observations from a re-analysis of the deposited data

Results flagged for a closer look

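Mx1 at 4 h of IL-4 drew attention because replicate changes in the strains had opposite signs. Both C57BL6 replicates lay above their mock partner (0.61 and 0.25 on the log2 scale) and both Balb/c replicates lay below it (-1.36 and -0.30). The difference of the changes, Balb/c minus C57BL6, was -1.26 ± 0.75 (SE, limma adjusted p = 0.9999), so it did not pass the test.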

How the results depend on the processing

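At 18 h all 10 members stayed below mock and below 4 h in both strains under each setting run, with medians of -2.63 to -2.19 in C57BL6 and -3.68 to -2.45 in Balb/c against mock, and no member's call changed sign. The number of members called did move, and the cause was not tested unless fewer arrays entered. Against mock in C57BL6 the 4 h count of 0 became 4 with the replicate block, 2 with median scaling, slide as a random or fixed block, array weights or an intensity trend, and 1 with only probes above background on all arrays. In Balb/c the 4 h count of 0 became 5 with the replicate block, 4 with slide as a random or fixed block, 2 with median scaling and 1 with the trend. The 18 h counts of 8 and 10 became 3 and 4 with normexp and 0 and 4 without the 4 arrays of slide 2, and in Balb/c 1 with only the arrays compared. For 18 h against 4 h the C57BL6 count of 4 became 8 with the replicate block, 7 with slide as a random or fixed block, weights or trend, and 0 with normexp, only the arrays compared or no slide 2. The Balb/c count of 6 became 10 with the replicate block or slide as a fixed block, and 0 with normexp, only the arrays compared or no slide 2. In these fits with 0 calls 7 to 10 members had an unadjusted p below 0.05. Leaving out each array in turn gave 0 to 1 (C57BL6, 4 h), 4 to 8 (C57BL6, 18 h), 0 to 1 (Balb/c, 4 h), 6 to 10 (Balb/c, 18 h), 0 to 5 and 0 to 6 (18 h against 4 h, C57BL6 and Balb/c); a lone array left in a group was assumed to vary like the others. Counts for the strains in mock (1) and for the strain differences (0) did not move. The replicate block changed no other call of a member than those given here and in the report. The shares of all genes called, and the counts of all genes at an unadjusted p, are those of the fit without a block. They are no background for member or list counts under another setting.

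Over all genes the calls ran, against mock, from 24 to 3057 (C57BL6 4 h, 594 as reported), 20 to 3199 (C57BL6 18 h, 789), 0 to 1343 (Balb/c 4 h, 264) and 17 to 2788 (Balb/c 18 h, 687). They ran from 0 to 1257 (C57BL6, 186) and 0 to 1099 (Balb/c, 166) for 18 h against 4 h, and from 30 to 1541 (967) between the strains in mock. Normexp moved the median of all genes by up to -0.41 (C57BL6 18 h), and the deposited ratios by 0.11 there. With the deposited ratios 53.2% of C57BL6 calls at 18 h were higher (39.4% as reported), 64.8% at 4 h (48.6%) and 65.6% between strains in mock (47.6%); median scaling gave 37.4% for Balb/c 18 h against 4 h (27.1%), and normexp 91.7% and 100% at 4 h (48.6% and 65.9%). Every member probe was well above background on every array. Whether signal level moved the member calls was not tested.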

Other observations

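Ifi44l, the neighbour of Ifi44 on chromosome 3 and chosen here after its values were seen, also parted the strains. It was well above background on 8 of 12 arrays. The 6 C57BL6 arrays stood between -7.53 and -5.17, near background. The Balb/c arrays stood at 3.94 in mock (1 mock array was dropped as flagged), 3.15 and 3.48 at 4 h and 0.68 and 1.58 at 18 h. With 1 mock array left in Balb/c, no test is given for Ifi44l against it. Epsti1, from the same list, stood the other way, lower in Balb/c mock by 1.22 on the log2 scale (adjusted p = 0.00398), and it fell at 18 h in both strains (-0.81 ± 0.16 and -1.07 ± 0.16, adjusted p = 0.0286 and 0.00943). Irf7, an interferon-induced regulator of the pathway, stood above mock at 4 h (0.62 ± 0.23 and 0.41 ± 0.23, adjusted p = 0.239 and 0.682) and fell by 18 h (-1.26 ± 0.23 and -1.39 ± 0.23, adjusted p = 0.0235 and 0.016).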
